A study of Mus musculus with 17 samples.

Results

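The genes described here are 8 epidermal kallikreins (Klk5, Klk6, Klk7, Klk8, Klk10, Klk11, Klk13 and Klk14), the serine protease inhibitor Spink5 and the membrane-anchored serine protease St14. They were taken by symbol from a fixed list of epidermal kallikrein and protease inhibitor genes, and all 10 of 10 were found among the 48820 gene identifiers of the count table. The list was drawn up knowing that Klk11 separates Lrig1+ and Lgr6+ cells from Lgr5+ cells in these data. The contrast between those populations is therefore given below as a description of the members, without a test. Tests of the members are given only for the comparisons that the choice did not use, and calls in that contrast are given only for genes outside the 10. Of the 10 genes, only Spink5 encodes an inhibitor, and St14 is itself a protease.

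RNA was measured in sorted keratinocytes of C57BL/6 mice aged 3 months. Every mouse carried an EGFP-CreERT2 cassette, a tamoxifen-inducible Cre joined to green fluorescent protein, at Lrig1, Lgr6 or Lgr5, and every mouse had been given 4-hydroxytamoxifen (4-OHT). The control mice were Pelo fl/+, so that Cre could act on a single floxed allele in them too, and the mutant mice were Pelo fl/fl. The labels call these WT and Pelo -/-, and those names are kept here for the libraries so labelled. Pelo encodes Pelota, a factor that frees stalled ribosomes. From each population 1000 GFP+ cells were collected, which gave 2 WT Lrig1 libraries and 3 libraries in each of the other 5 groups, 17 in all. Lrig1 marks the junctional zone of the hair follicle and Lgr6 the isthmus, and these populations are called the upper follicle here. Lgr5 marks the lower bulge and hair germ. Nothing in the labels ties a replicate to its own animal, and the tests thus measure the spread between these libraries, which may be in part technical. The sources used here do not give the number of copies of the cassette or the exons of Pelo between the loxP sites.

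Kallikreins are secreted serine proteases that are made as inactive precursors. In the outer epidermis KLK5, KLK7 and KLK14 cut the desmosomal proteins that hold corneocytes together, and so control shedding of the skin surface. KLK5 can activate other kallikreins, St14 (matriptase) acts upstream of this cascade, and LEKTI, the product of Spink5, blocks KLK5, KLK7 and KLK14. Loss of LEKTI causes Netherton syndrome, a disorder of scaling skin with a leaky barrier.

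The 8 kallikreins lie in 1 stretch of chromosome 7 together with Klk12 and Klk9, in the order Klk14, Klk13, Klk12, Klk11, Klk10, Klk9, Klk8, Klk7, Klk6 and Klk5 (GENCODE M21, GRCm38, chr7:43690418-43851181). All 10 genes of the stretch are on the + strand, and it spans 160764 bp. Klk11 occupies chr7:43774604-43779263, 1018 bp past the end of Klk12 and 1771 bp before the start of Klk10. An antisense noncoding gene, 2310002F09Rik, overlaps 287 bp of Klk14 exon (22.6% of its exon length) and 382 bp of Klk8 exon (24.8%), and no exon of the other 6 kallikreins. The sources used here do not give whether strand was used in counting. Reads of that gene then cannot be told apart from reads of Klk14 and Klk8 in those parts.

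The 250 bases before the annotated start are shown for Klk11, whose level differed most between the populations, for its neighbour Klk10 and for the low member Klk13. Klk11 has a pair of RefSeq starts, and the window of each is given. The sequences are RefSeq's on GRCm38.p6, + strand, 5′ to 3′, and capitals mark matches to CCNCNCCC on either strand, the letters of the KLF and Sp factors' GC-rich box, with overlapping matches merged.
Klk11, first start, chr7:43774367-43774616: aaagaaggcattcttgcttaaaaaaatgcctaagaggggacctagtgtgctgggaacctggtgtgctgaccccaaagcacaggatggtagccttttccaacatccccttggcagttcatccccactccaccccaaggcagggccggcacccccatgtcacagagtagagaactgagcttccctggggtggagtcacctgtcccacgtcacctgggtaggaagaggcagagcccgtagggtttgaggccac
Klk11, second start, chr7:43776079-43776328: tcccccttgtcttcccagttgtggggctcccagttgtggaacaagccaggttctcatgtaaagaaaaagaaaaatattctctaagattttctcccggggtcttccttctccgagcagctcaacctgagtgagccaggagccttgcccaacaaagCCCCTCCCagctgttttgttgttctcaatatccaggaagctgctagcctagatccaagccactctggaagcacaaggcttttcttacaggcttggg
Klk10, chr7:43780804-43781053: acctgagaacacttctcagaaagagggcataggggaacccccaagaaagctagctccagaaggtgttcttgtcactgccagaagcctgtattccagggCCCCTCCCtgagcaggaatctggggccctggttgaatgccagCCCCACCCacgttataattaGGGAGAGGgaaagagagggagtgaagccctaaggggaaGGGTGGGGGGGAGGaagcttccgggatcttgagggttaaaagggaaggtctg
Klk13, chr7:43712317-43712566: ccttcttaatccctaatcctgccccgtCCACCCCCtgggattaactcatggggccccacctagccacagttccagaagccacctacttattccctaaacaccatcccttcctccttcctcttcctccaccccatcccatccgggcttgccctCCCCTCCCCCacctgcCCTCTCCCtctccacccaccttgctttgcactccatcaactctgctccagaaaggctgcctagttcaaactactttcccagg
The window at the first Klk11 start held none of the 5 motifs searched, and that at the second held 1 match to CCNCNCCC. The Klk10 window held 5 matches and the Klk13 window 4, although Klk13 was among the lowest members in the upper follicle. Over the 10 windows that RefSeq gave for the 8 kallikreins, 7 held CCNCNCCC, a sequence found in 45.9% of 32851 mouse promoter windows of the same length. The AP-1 site TGANTCA (6.75% of all windows), the grainyhead-like site AACCNGTT (1.79%), the TATA box TATAAA (12.4%) and the E-box CACGTG (6.02%), each searched on both strands, were in 0 of those 10 windows. A match is only a run of letters, and a missing one says nothing of the factor.

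Libraries held 9647507 to 28098841 counts, with 9647507 to 17219054 in the 6 Lgr5 libraries and 13333497 to 28098841 in the 11 upper follicle libraries. Levels are given as CPM, counts in 1000000 counts of a library after TMM scaling, and levels of different genes are compared only as CPM per kb of exon. Lgr5 was at 276 to 570.0 CPM in the Lgr5 libraries and at no more than 29.4 CPM in the others. Lrig1 was at 39.3 to 41.7 CPM in WT Lrig1 cells and 45.3 to 60.0 in WT Lgr6 cells. In Pelo -/- these were 7.42 to 37.7 and 39.3 to 58.8 CPM, so Lrig1 was not highest in Lrig1 cells. In WT, Lgr6 overlapped between populations, at 58.3 to 109 CPM in Lrig1, 79.4 to 197 in Lgr6 and 17.7 to 103 in Lgr5 cells. In Pelo -/- it was at 77.3 to 106, 120 to 180 and 42.1 to 108 CPM, without overlap for Lgr6 cells. The keratin gene Krt14 was at 4630 to 10568 CPM in the upper follicle libraries and at 140.4 to 837 CPM in the Lgr5 libraries. Pelo itself was at 3.72 to 6.05 CPM in WT and 0.483 to 3.82 CPM in Pelo -/- Lrig1 cells, at 2.02 to 5.39 and 3.10 to 4.94 CPM in Lgr6 cells, and at 5.90 to 17.4 and 11.8 to 23.6 CPM in Lgr5 cells. Its log2 fold change in edgeR's quasi-likelihood test was -1.49 ± 0.83 (SE, adjusted p = 1), 0.086 ± 0.75 (adjusted p = 1) and 0.31 ± 0.74 (adjusted p = 1.00), so the gene's total count does not show the deletion in Lgr6 or Lgr5 cells. With the deleted exons not given, this total is no check of the genotype. All directions between genotypes below rest on the labels.

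Klk11, which encodes a trypsin-like kallikrein (hippostasin), was the highest kallikrein of the upper follicle and was near the bottom of detection in Lgr5 cells. In Lrig1 cells it was at 65.2 and 60.6 CPM in WT and at 108, 84.3 and 56.3 CPM in Pelo -/-. In Lgr6 cells it was at 100.01, 33.7 and 166 CPM in WT and at 98.7, 58.1 and 84.0 CPM in Pelo -/-. In Lgr5 cells it was at 1.01, 0.513 and 0.492 CPM in WT and at 0.0587, 0.709 and 0.805 CPM in Pelo -/-, from 1 to 15 counts a library. The lowest upper follicle library, WT Lgr6 replicate 2, held 668 counts of Klk11, and the 11 upper follicle libraries did not overlap the 6 Lgr5 libraries. The mean of the Lrig1 and Lgr6 groups was 6.88 ± 0.68 (log2 fold change ± SE) above Lgr5 in WT and 7.27 ± 0.69 above it in Pelo -/-. Among the 4 upper follicle groups the means ran from 62.9 CPM in WT Lrig1 to 99.9 CPM in WT Lgr6, and these groups overlapped one another.

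Klk11 made up a median of 63.2% of the summed CPM per kb of the 8 kallikreins in an upper follicle library, with a range of 17.8% to 80.4%. It was the highest of the 8 in 10 of 11 upper follicle libraries, and the exception was WT Lgr6 replicate 2, where Klk7 led. The summed level was 56.2 to 162 CPM per kb in the upper follicle (median 89.0) and 2.14 to 4.86 CPM per kb in Lgr5 cells (median 3.19). As a measure of low counts, 18 other kallikrein genes were read, which leave out Klk9 and include Klkb1 and the Klk1b family of submandibular gland. They had a median of 0.131 CPM per kb in the upper follicle and 0.355 in Lgr5 cells. Klk11 exceeded every one of the 18 in 11 of 11 upper follicle libraries. In the Lgr5 libraries between 2 and 15 of the 18 exceeded Klk11. Its Lgr5 level of 0.408 ± 0.224 CPM per kb (SD, n = 6) thus lay within the range of these genes, which are not listed as epidermal. That range was 0 to 9.54 CPM per kb in Lgr5 cells, so the genes give no fixed floor.

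**Figure D1:**
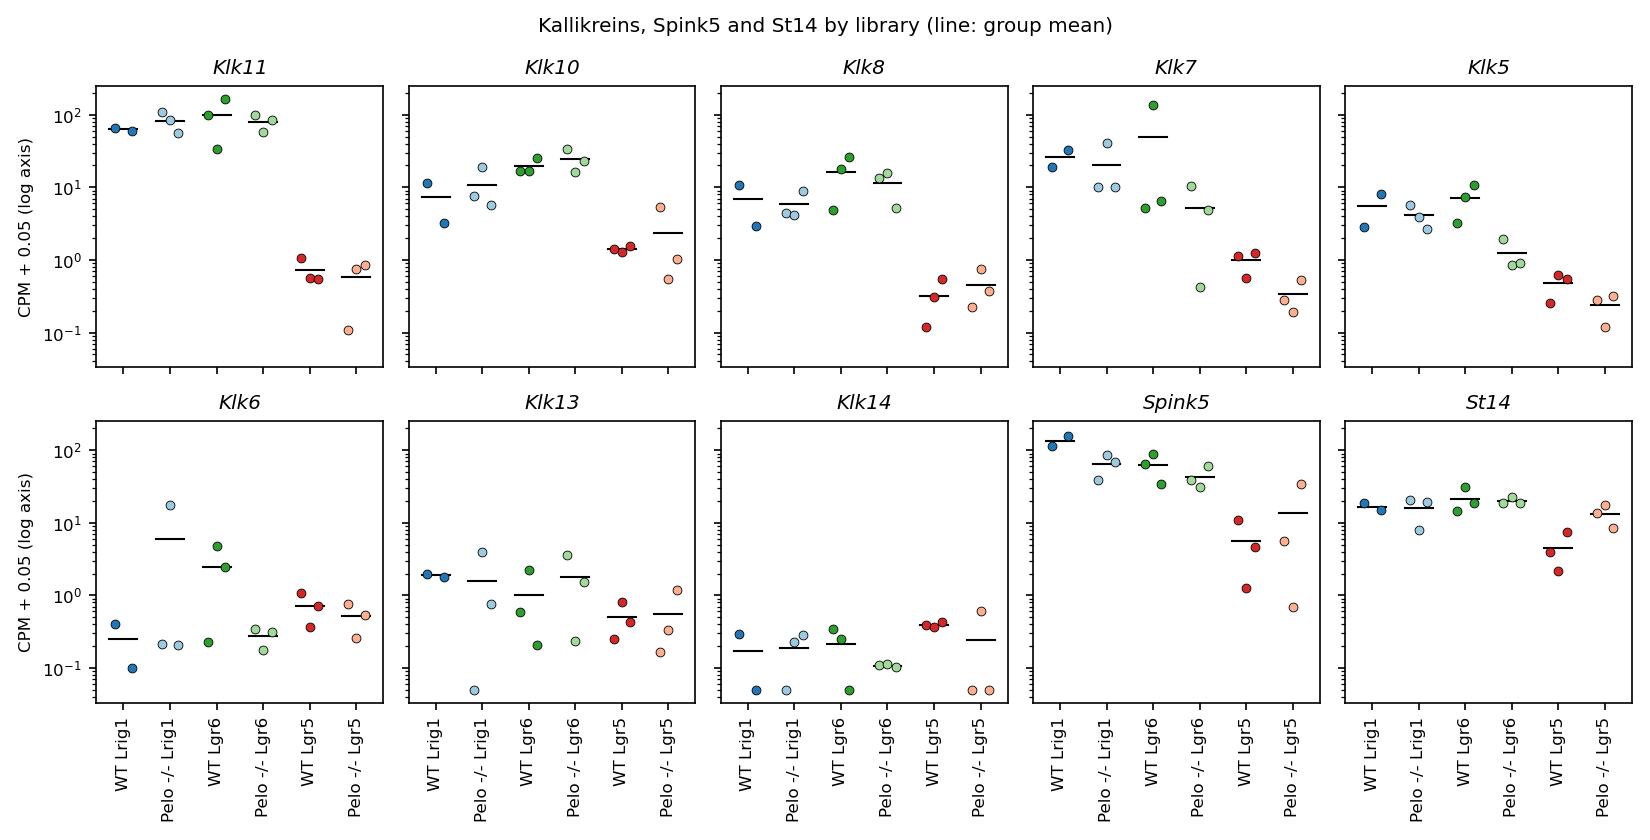
Level of each member in each library, as CPM plus 0.05 on a log axis, by group, with a line at the group mean. Klk11 sits between 33.7 and 166 CPM in the 11 upper follicle libraries and at 1.01 CPM or less in the 6 Lgr5 libraries, and Klk5 and Klk8 also separate all 11 from all 6, while the other 7 members overlap between the populations in at least 1 library.

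Klk10 and Klk8 also separated the upper follicle from Lgr5 cells within each genotype with TMM scaling (Klk10 in Pelo -/- overlapped with RLE scaling), at lower levels than Klk11. Klk10 was at 11.5 and 3.19 CPM in WT Lrig1, 7.47, 19.1 and 5.68 in Pelo -/- Lrig1, 16.5, 16.7 and 25.3 in Lgr6 cells of WT and 34.1, 16.2 and 22.9 in those of Pelo -/-. In Lgr5 cells it was at 1.35, 1.22 and 1.53 CPM in WT and 5.34, 0.496 and 0.966 CPM in Pelo -/-. Pelo -/- Lgr5 replicate 1 was the high library of that group, and the upper follicle stood 3.12 ± 0.76 (log2, SE) above Lgr5 in WT and 2.83 ± 0.73 above it in Pelo -/-. The Pelo -/- value was 4.45 without that library. Klk8, which encodes neuropsin, was at 10.7 and 2.90 CPM in WT Lrig1, 4.41, 4.10 and 8.88 in Pelo -/- Lrig1, 4.83, 17.9 and 26.1 in Lgr6 cells of WT and 13.3, 15.8 and 5.15 in those of Pelo -/-. All 6 Lgr5 libraries were at or under 0.709 CPM of Klk8, that is 1 to 10 counts. Its log2 fold change was 5.21 ± 0.96 (SE) in WT and 4.33 ± 0.90 in Pelo -/-. Its count cannot be told apart from that of the antisense gene named above where their exons overlap. The antisense gene was at 0.588 ± 0.503 CPM per kb (SD, n = 11) in the upper follicle and Klk8 at 6.73 ± 4.74.

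The proteases of corneocyte shedding varied more between libraries. Klk5, whose product can start the cascade, was at 2.82 and 8.17 CPM in WT Lrig1, 5.72, 3.80 and 2.65 in Pelo -/- Lrig1, 3.22, 7.26 and 10.7 in Lgr6 cells of WT and 1.87, 0.812 and 0.850 in those of Pelo -/-. The Lgr5 libraries held 0.0709 to 0.577 CPM of Klk5, below every upper follicle library, and the log2 fold change was 3.85 ± 0.93 (SE) in WT and 3.44 ± 0.92 in Pelo -/-. Klk7, the chymotrypsin-like kallikrein, was at 19.1 and 32.4 CPM in WT Lrig1, 9.97, 41.3 and 10.1 in Pelo -/- Lrig1, 5.13, 138 and 6.52 in Lgr6 cells of WT and 10.3, 0.375 and 4.89 in those of Pelo -/-. WT Lgr6 replicate 2 held 2733 counts of Klk7 and stood far above the other libraries, while Pelo -/- Lgr6 replicate 2, with 6 counts, fell within the Lgr5 range of 0.142 to 1.20 CPM. The log2 fold change of Klk7 was 5.25 ± 1.21 (SE) in WT and 5.10 ± 1.23 in Pelo -/-, and the WT value was 3.69 without WT Lgr6 replicate 2. Klk14 was barely detected, with no library above 8 counts. Its 11 upper follicle libraries were at 0 to 0.298 CPM and its Lgr5 libraries at 0 to 0.567 CPM, and it passed the filter on low counts through the Lgr5 libraries. Its WT upper follicle libraries all lay below its WT Lgr5 libraries, as did those of 10.2% of tested genes.

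Spink5, the inhibitor of KLK5, KLK7 and KLK14, lies on chromosome 18 (chr18:43963235-44022501, + strand). It was at 113 and 159 CPM in WT Lrig1, 38.4, 85.1 and 68.6 in Pelo -/- Lrig1, 65.5, 88.2 and 34.1 in Lgr6 cells of WT and 39.0, 31.2 and 59.7 in those of Pelo -/-. In Lgr5 cells it was at 11.02, 1.22 and 4.59 CPM in WT and 5.63, 0.638 and 34.2 CPM in Pelo -/-. Pelo -/- Lgr5 replicate 3 thus lay within the upper follicle range, and the other 5 Lgr5 libraries lay below it. The log2 fold change was 4.04 ± 0.93 (SE) in WT and 1.96 ± 0.81 in Pelo -/-. The Pelo -/- value was 4.05 without Pelo -/- Lgr5 replicate 3 and 3.20 with limma-voom. Per kb of exon, the ratio of Spink5 to the sum of Klk5, Klk7 and Klk14 was 0.236 to 7.62 in the upper follicle libraries (median 1.43) and 0.232 to 15.7 in the Lgr5 libraries (median 1.53). The lowest upper follicle ratio was in WT Lgr6 replicate 2, where Klk7 was high, and the highest in Pelo -/- Lgr6 replicate 2, where Klk7 was low. The ratio is of RNA levels and is no measure of inhibition.

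Klk6 and Klk13 did not separate the populations. Klk6, which encodes neurosin, was at 0.360 and 0.0484 CPM in WT Lrig1, 0.164, 17.7 and 0.156 in Pelo -/- Lrig1, 0.179, 4.74 and 2.38 in Lgr6 cells of WT, 0.293, 0.125 and 0.266 in those of Pelo -/-, 1.01, 0.320 and 0.656 in WT Lgr5 and 0.704, 0.213 and 0.483 in Pelo -/- Lgr5. Only 3 libraries were above 2 CPM of Klk6, and they are Pelo -/- Lrig1 replicate 2 with 293 counts and WT Lgr6 replicates 2 and 3. Its log2 fold change, upper follicle over Lgr5, was 0.086 ± 1.43 (SE) in WT and 1.32 ± 1.23 in Pelo -/-. The WT value was -0.36 with RLE scaling, and the Pelo -/- value was 0.025 with limma-voom. Klk13 was at 0 to 3.86 CPM in the upper follicle and at 0.117 to 1.13 CPM in Lgr5 cells, with a log2 fold change of 1.53 ± 1.22 (SE) in WT and 1.65 ± 1.19 in Pelo -/-. Klk11 and the genes next to it along chromosome 7 were not alike in level. Klk12, directly before Klk11, was at 0.196 ± 0.127 CPM per kb (SD, n = 11) in the upper follicle against 56.7 ± 24.2 for Klk11, and Klk10, directly after it, was at 11.8 ± 6.65.

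**Figure D2:**
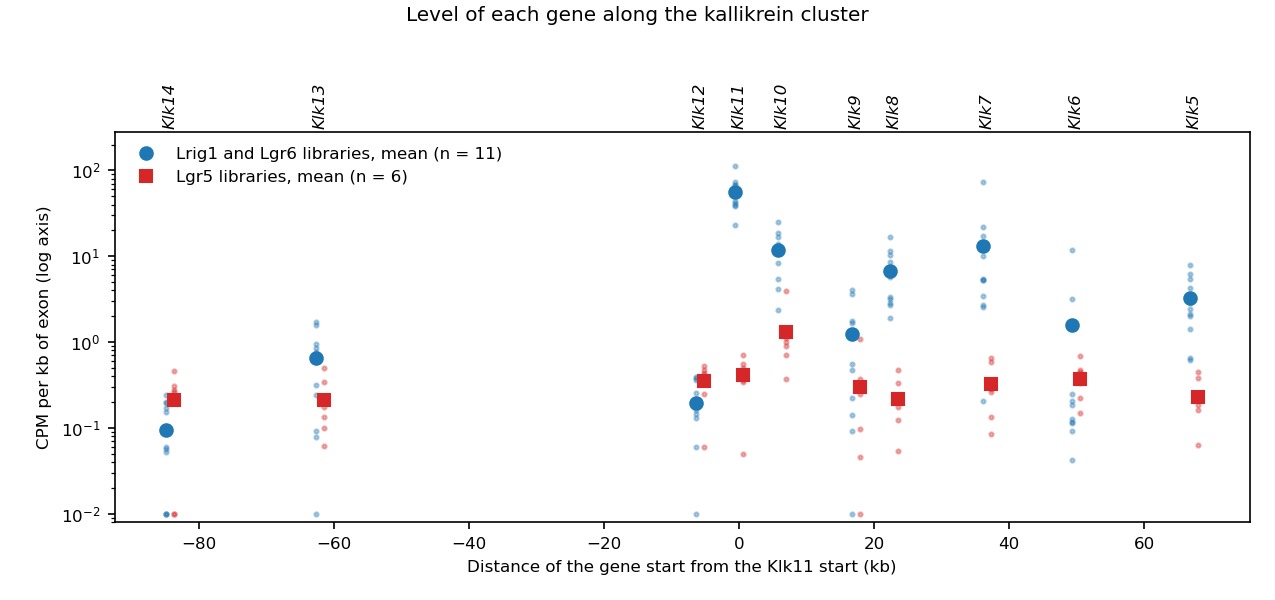
Level of the 10 genes along the cluster, as CPM per kb of exon on a log axis, against the distance of each gene start from that of Klk11 in kb. Large symbols are means of the 11 upper follicle libraries and of the 6 Lgr5 libraries, drawn slightly apart sideways. Small points are libraries, drawn with 0.01 added, which the means do not have. Klk11, at 56.7 CPM per kb in the upper follicle, stands beside Klk12 at 0.196.

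St14 (chr9:31089402-31131853, - strand) was the only member above 2 CPM in all 17 libraries. It was at 18.5 and 14.8 CPM in WT Lrig1, 20.3, 7.96 and 19.5 in Pelo -/- Lrig1, 14.4, 31.3 and 18.7 in Lgr6 cells of WT and 18.7, 22.6 and 18.6 in those of Pelo -/-. In Lgr5 cells it was at 3.92, 2.11 and 7.38 CPM in WT and 13.7, 17.4 and 8.32 CPM in Pelo -/-. The WT Lgr5 libraries lay below every WT upper follicle library, with a log2 fold change of 2.08 ± 0.55 (SE), while in Pelo -/- the groups overlapped and the value was 0.44 ± 0.49. The WT value was 1.06 when only genes with a mean of at least 5 CPM entered the fit. St14 was not alone in this. With that filter the WT value of Klk11 was 6.06 and that of Klk10 was 2.23. The WT median over all genes then fitted was -0.055. Ordered by mean CPM per kb, the upper follicle had Klk11 (56.7 ± 24.2, SD, n = 11), Spink5 (14.8 ± 8.12), Klk7 (13.3 ± 20.8), Klk10 (11.8 ± 6.65), Klk8 (6.73 ± 4.74), Klk5 (3.25 ± 2.40), St14 (2.44 ± 0.747), Klk6 (1.59 ± 3.48), Klk13 (0.646 ± 0.582) and Klk14 (0.0950 ± 0.0877). Klk11 stood clear of Spink5 by more than their SDs, and from Spink5 to Klk14 each gene differed from the next by less than the larger of their SDs.

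In WT, 7 of 10 members had upper follicle libraries that all lay above all Lgr5 libraries, where 14.6% of the 30405 tested genes did, and in Pelo -/- 4 of 10 did, where 11.5% did. Since the list was chosen on this contrast, these counts are its description only. The median log2 fold change of the members was 3.49 in WT and 2.39 in Pelo -/-, beside -0.82 and -0.69 over all tested genes. Over all tested genes, edgeR's quasi-likelihood test at an adjusted p under 0.05 called 18.2% in WT, 12.2% higher and 6.01% lower in the upper follicle, and 14.4% in Pelo -/-, 8.36% higher and 6.03% lower. The median of all genes moved to -1.26 and -0.83 with RLE scaling. The split of those calls moved with it, from 66.9% to 39.9% higher in the upper follicle in WT and from 58.1% to 48.1% in Pelo -/-. Klk6 in WT was the only member whose sign turned under RLE scaling in these contrasts. In bulk libraries, fewer cells that express a gene and less RNA of it per cell cannot be told apart.

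The rest of the pathway was read from lists of related genes, by the same edgeR test. Each count is set beside the share of all tested genes called higher (12.2% in WT and 8.36% in Pelo -/-) and lower (6.01% and 6.03%), and the lists were not tested as sets. Of 19 other kallikreins, with Klk9 now included, 18 were tested. In the WT upper follicle 0 were higher and 1, Klk1b9, was lower, and 0 were called in Pelo -/-. Klk1b9 had 0, 0, 4, 4 and 0 counts in the WT upper follicle libraries and 3, 7 and 25 in the WT Lgr5 libraries, so the ranges overlapped, and it passed the filter on low counts through the Lgr5 side. Of 25 tested other serine protease inhibitors, 7 were higher and 0 lower in WT, and 5 were higher and 1 lower in Pelo -/-. The largest was Serpinb2, which encodes an inhibitor of plasminogen activators, at 7.57 ± 0.84 (SE; edgeR adjusted p = 3.28e-06) in WT. Spint1 and Spint2 encode the inhibitors of matriptase, and in WT Spint1 was higher by 1.36 ± 0.36 (edgeR adjusted p = 0.00883) and Spint2 by 1.87 ± 0.36 (adjusted p = 0.000608). Spink6, which encodes another kallikrein inhibitor of skin, was lower in the Pelo -/- upper follicle by -5.47 ± 1.24 (edgeR adjusted p = 0.00352), with at most 2 counts in any of those 6 libraries and 84, 14 and 6 counts in Pelo -/- Lgr5. Spink6 too passed the filter through the Lgr5 side. The median over the inhibitors was 0.23 in WT and 0.048 in Pelo -/-, against the medians of all genes given above.

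Among 22 other proteases of the epidermal barrier, 9 were higher and 1 lower in the WT upper follicle, and 8 were higher and 0 lower in Pelo -/-. Of all tested genes 12.2% were higher and 6.01% lower in WT, and 8.36% and 6.03% in Pelo -/-. In WT these included Casp14, the caspase of cornifying cells (7.15 ± 0.80, SE; edgeR adjusted p = 1.64e-06), and Tmprss13, a membrane serine protease (3.96 ± 0.58; adjusted p = 2.73e-05). They also included the cathepsin genes Ctsc (3.14 ± 0.52; edgeR adjusted p = 0.000115) and Ctsd (2.41 ± 0.43; adjusted p = 0.000248). Of 16 substrates and receptors, 4 were higher and 1 lower in WT, and 5 were higher and 2 lower in Pelo -/-, to be read beside the same shares. Dsg1a, one of the desmogleins that kallikreins cut, was higher by 2.87 ± 0.42 in WT (edgeR adjusted p = 2.76e-05) and Dsg1b by 3.05 ± 0.47 (adjusted p = 5.46e-05). Scnn1b, a subunit of the epithelial sodium channel, was lower by -2.98 ± 0.90 in WT (edgeR adjusted p = 0.0225).

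Summed markers of several cell states also differed between the populations. These lists share genes with the lists above, so their calls are not independent of those. Casp14, Asprv1, Dsg1a, Dsc1, Cdsn and Flg are also spinous and granular markers here. Epcam is also among the Langerhans cell, T cell and macrophage markers. The summed level of 22 spinous and granular keratinocyte markers was 4333 to 14117 CPM in the upper follicle libraries and 255 to 472 CPM in the Lgr5 libraries. None of the 22 was at 0 throughout either side, and 11 were called higher and 1 lower in WT, where 12.2% and 6.01% of all tested genes were. The 8 basal keratinocyte markers summed to 13725 to 25538 CPM and 4344 to 9260 CPM, with 5 called higher and 0 lower in WT. Markers of the upper follicle, 7 genes that include Lrig1 and Lgr6, summed to 530.3 to 3349 CPM against 60.9 to 371 CPM. Cassettes at Lrig1 and Lgr6 marked the sorted cells, so that sum is not independent of the sort. Markers of sebaceous gland (8 genes) summed to 232 to 776 CPM against 91.9 to 144 CPM. Those of Langerhans cells, T cells and macrophages (9 genes) summed to 167 to 568 CPM against 41.2 to 148 CPM. Each of these sums was higher in every upper follicle library than in every Lgr5 library. The opposite order held for 7 melanocyte markers (12.6 to 39.1 CPM against 61.0 to 327 CPM) and for 6 fibroblast markers (1.38 to 20.8 CPM against 34.6 to 66.9 CPM). The summed markers of bulge and germ, of inner root sheath and hair shaft, and of endothelium overlapped between the populations. Of the 10 bulge and germ markers, which include Lgr5, 1 was called higher and 5 lower in WT, beside the WT shares above. In Pelo -/- 0 were called higher and 7 lower, where 8.36% and 6.03% of all tested genes were. Of the 9 Langerhans cell, T cell and macrophage markers, 2 were called higher and 0 lower in WT, and 3 were lower in value. Their higher sum thus does not hold for each marker. The part of all these cells in the kallikrein levels was not tested. Within the upper follicle, the library with the highest Klk7, WT Lgr6 replicate 2, had a spinous and granular sum of 5113 CPM, and the library with the highest Klk6, Pelo -/- Lrig1 replicate 2, had 7816 CPM, which is the median of the 11 libraries. The highest spinous and granular sum, 14117 CPM, was in WT Lrig1 replicate 2. In that library Klk6 was at 0.0484 CPM, Klk5 at 8.17, Klk7 at 32.4 and Klk11 at 60.6. Its Spink5, at 159 CPM, was the highest of any library. Its Klk8, at 2.90 CPM, and Klk10, at 3.19 CPM, were the lowest of the upper follicle. No relation between member levels and this marker sum was tested. The highest upper follicle marker sum, 3349 CPM, was in WT Lgr6 replicate 2, and the next, 949 CPM, in WT Lgr6 replicate 3. The part of those markers in the Klk7 level was not tested.

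**Figure D3:**
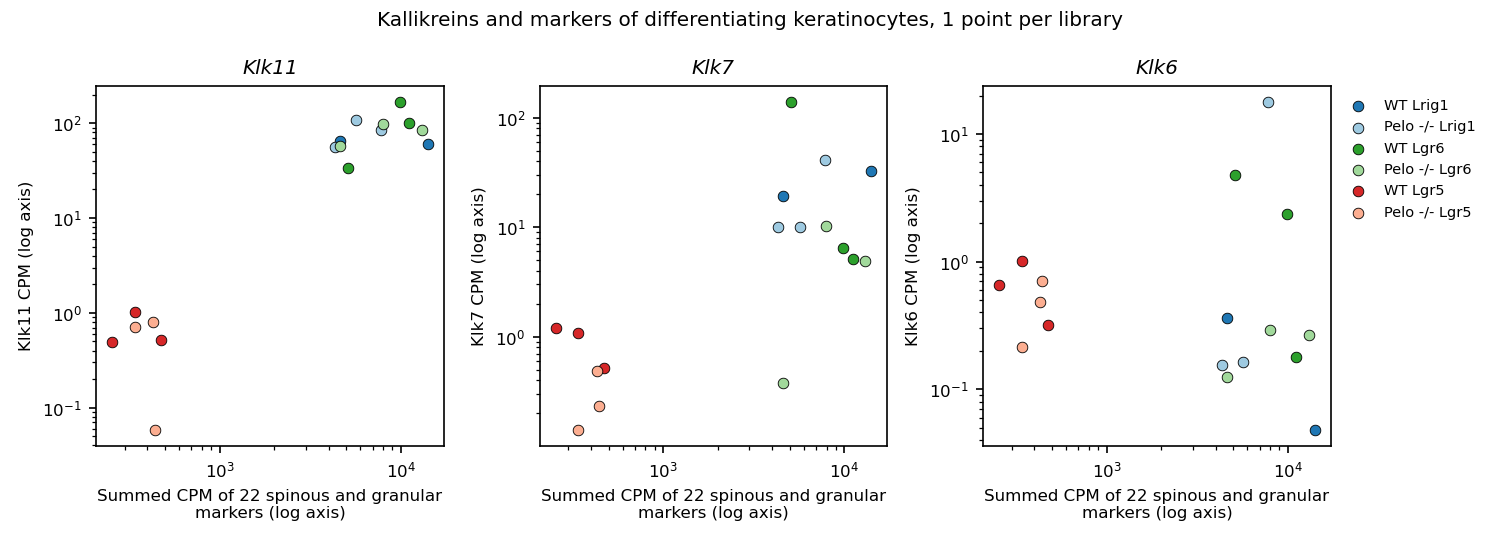
Klk11, Klk7 and Klk6 in CPM against the summed CPM of 22 spinous and granular keratinocyte markers, 1 point per library, both axes logarithmic. The Lgr5 libraries lie between 255 and 472 CPM of the markers and the upper follicle libraries between 4333 and 14117. The highest Klk7 and Klk6 libraries are at 5113 and 7816 CPM of the markers. The library with the most marker RNA has 60.6 CPM of Klk11, 32.4 of Klk7 and 0.0484 of Klk6. No relation was tested.

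The comparison of Pelo -/- with WT asks what loss of Pelota changes in each population, and it was not used to choose the genes. No member passed it. By edgeR's quasi-likelihood test 0 of 10 members were called in Lrig1 cells, where 0% of tested genes were, 0 of 10 in Lgr6 cells, where 0% were, and 0 of 10 in Lgr5 cells, where 0.0197% were. DESeq2 and limma-voom also called 0 of 10 in each. At an unadjusted p under 0.05 the members were 1 in Lrig1, 3 in Lgr6 and 1 in Lgr5 cells, against 3.64%, 3.88% and 6.25% of tested genes. Klk11 had log2 fold changes of 0.40 ± 0.59 (SE), -0.32 ± 0.52 and -0.35 ± 0.64 in the same order. A p that misses the threshold in groups of 2 or 3 libraries does not show that Klk11 was unchanged.

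In Lgr6 cells the members with the smallest p were Klk5, Klk7 and Klk6. Klk5 had a mean of 7.05 CPM in WT and 1.18 CPM in Pelo -/-, a log2 fold change of -2.57 ± 0.90 (SE; edgeR adjusted p = 1). Every Pelo -/- Lgr6 library lay below every WT Lgr6 library for Klk5, a pattern that 5.74% of tested genes showed in this direction. Between the same libraries the summed Langerhans cell, T cell and macrophage markers were at 237 to 568 CPM in WT and 167 to 184 CPM in Pelo -/-, and the basal keratinocyte markers at 13725 to 21166 and 22535 to 25538 CPM. Neither sum overlapped between the genotypes, and their part in the Klk5 values was not tested. Klk7 had a value of -3.26 ± 1.11 (edgeR adjusted p = 1) with overlapping groups, and -0.16 without WT Lgr6 replicate 2. That library also had the highest upper follicle marker sum, 3349 CPM, whose part in the Klk7 value was not tested. Klk6 had a value of -3.37 ± 1.43 (edgeR adjusted p = 1), and its groups overlapped too. In Lrig1 cells Klk6 was at 4.86 ± 1.81 (edgeR adjusted p = 1), which became -0.31 without Pelo -/- Lrig1 replicate 2, the library with 293 counts. Spink5 in Lrig1 cells was lower in all 3 Pelo -/- libraries than in both WT libraries (-1.08 ± 0.94, edgeR adjusted p = 1), as were 10.7% of tested genes. The summed upper follicle markers, Lrig1 itself among them, were also lower there. They were at 616 to 718 CPM in Pelo -/- and 758 to 922 CPM in WT, and their part was not tested.

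In Lgr5 cells the member with the smallest p was St14, with a mean of 4.47 CPM in WT and 13.1 CPM in Pelo -/-. The log2 fold change was 1.55 ± 0.58 (SE; edgeR adjusted p = 0.633). The 3 Pelo -/- libraries lay above the 3 WT libraries, as was so for 3.80% of tested genes in this direction. Summed markers of melanocytes, of bulge and germ (Lgr5 itself among them) and of basal keratinocytes were higher without overlap in the same Pelo -/- libraries. They were at 61.0 to 132 CPM in WT and 146 to 327 CPM in Pelo -/- for melanocytes, at 7607 to 9115 and 10019 to 12872 CPM for bulge and germ, and at 4344 to 6326 and 6398 to 9260 CPM for basal keratinocytes. Their part in the St14 difference was not tested. Klk7 was lower in the 3 Pelo -/- libraries than in the 3 WT libraries (-1.65 ± 1.20, edgeR adjusted p = 0.976), as were 4.41% of tested genes, at 22 counts or fewer. Spink5 had a value of 1.27 ± 0.87 (edgeR adjusted p = 0.966), and -0.82 without Pelo -/- Lgr5 replicate 3. The difference between the Pelo effect in the upper follicle and that in Lgr5 cells was also tested, and 0 of 10 members passed, where 0.00987% of tested genes did. St14 was the only member with an unadjusted p under 0.05 there (-1.64 ± 0.71, SE; edgeR adjusted p = 0.827), against 5.52% of tested genes. Spink5 had -2.08 ± 1.08 (edgeR adjusted p = 0.952), and 0.019 without Pelo -/- Lgr5 replicate 3. The difference for St14 uses the same WT Lgr5 libraries as the comparison within Lgr5 cells and repeats it in part.

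**Figure D4:**
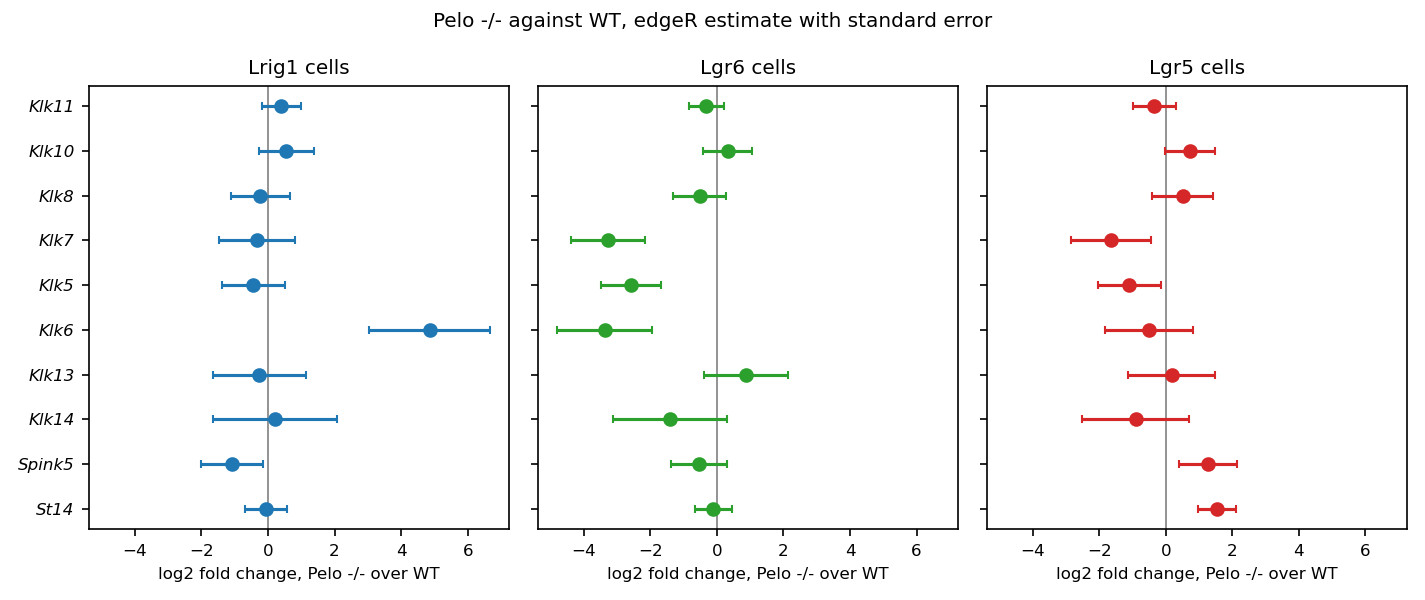
Log2 fold change of each member, Pelo -/- over WT, in Lrig1, Lgr6 and Lgr5 cells, with bars of 1 standard error from edgeR. No value passed the adjusted threshold, the Klk6 point of 4.86 in Lrig1 cells and the Klk7 point of -3.26 in Lgr6 cells each rest on 1 library, and St14 in Lgr5 cells is at 1.55.

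The upper follicle populations were also compared with each other. By edgeR's quasi-likelihood test 0 of 10 members differed between Lrig1 and Lgr6 cells in WT, and 0 of 10 in Pelo -/-, where 0% of tested genes did in each. DESeq2 and limma-voom also called 0 of 10. At an unadjusted p under 0.05 there was 1 member in each, Klk6, against 4.67% and 4.20% of tested genes. Klk6 was at -3.56 ± 1.71 (SE; edgeR adjusted p = 1) in WT and at 4.67 ± 1.50 (edgeR adjusted p = 1) in Pelo -/-. The latter became -0.50 without Pelo -/- Lrig1 replicate 2. Klk11 was at -0.67 ± 0.59 in WT and 0.049 ± 0.52 in Pelo -/-. Klk10 was lower in both WT Lrig1 libraries than in the 3 WT Lgr6 libraries (-1.41 ± 0.85, edgeR adjusted p = 1), as were 12.8% of tested genes, and its value in Pelo -/- was -1.18 ± 0.73 with overlapping groups. Spink5 was higher in both WT Lrig1 libraries (1.11 ± 0.93, edgeR adjusted p = 1), as were 5.85% of tested genes. In Pelo -/-, Klk5 was higher in the 3 Lrig1 libraries than in the 3 Lgr6 libraries (1.78 ± 0.88, edgeR adjusted p = 1), as were 3.97% of tested genes. In those libraries the Langerhans cell, T cell and macrophage markers summed to 192 to 272 CPM in Lrig1 and 167 to 184 CPM in Lgr6 cells, and the basal keratinocyte markers to 17172 to 22099 and 22535 to 25538 CPM, with no overlap in either and their part not tested.

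The genes whose profiles were most like that of Klk11 were found over the 17 libraries. The search took 9452 genes with a symbol (not Gm or Rik) and a mean log2 CPM of at least 2. Likeness was the smallest root mean square difference of log2 CPM after each gene was centred on its mean. The Klk11 search gave 5 genes. They were Serpinb2 (0.51), Il1f9 (0.67), Mrgprb11-ps (0.67), Oas1f (0.70) and Ptgs1 (0.77), where Klk11 itself varied by 3.39 about its mean. The libraries share their population and their depth in this measure. The other members' closest genes are given with the member's own variation about its mean in the same unit. They were Colgalt1 for Klk10 (0.65, own 1.79), Ripply3 for Klk8 (0.78, own 2.27), Ndufa8 for Klk5 (0.80, own 1.79) and Ly6c1 for Klk7 (1.25, own 2.60). They were Trim7 for Spink5 (0.81, own 2.17) and Trmt112 for St14 (0.42, own 0.946). Among the members the closest pairs were Klk10 with Klk8 (1.28) and Klk5 with Klk7 (1.39). Member pairs are few and include members near the bottom of detection. Their values are thus not comparable with the closest of 9452 genes.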

How the data were processed

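RNA was measured in 1000 GFP+ cells per library, with full-length libraries cited to Picelli and colleagues per the labels' protocols. The deposited table holds whole-number counts per gene made by the authors. Per the submitters' processing notes STAR, edgeR, GRCm38 and mm10 were used. The sources used here do not give the counting tool, the annotation release or the use of strand. Of 48820 identifiers, 48058 matched GENCODE M21 without their version, and 762 did not.

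The counts were scaled by TMM, filtered with filterByExpr (minimum count 10, minimum total 15) and fitted over all 17 libraries with edgeR 4.0.16 in R 4.3.3 (glmQLFit and glmQLFTest, robust, a coefficient for each of 6 groups, common dispersion 0.537). This left 30405 genes, and p-values were Benjamini-Hochberg adjusted over all of them in each of 8 comparisons. All 10 members passed the filter. The standard error is the size of the log2 fold change divided by the root of F. The upper follicle is the mean of the Lrig1 and Lgr6 coefficients. CPM per kb divides by the length of all annotated exons. Alternatives were RLE scaling, no filter, a mean of at least 5 CPM, DESeq2 1.42.0, limma-voom (limma 3.58.1), a replicate block, the compared groups alone and leaving out each library. A library left alone in its group is taken to vary like the other groups.

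The members and all gene lists were chosen with earlier results of these data known. All members are named, and of each list the genes called or, if none, those with the smallest p (up to 4) could be named. The nearest profiles were the 5 closest genes for each member with 10 counts in 9 libraries, of which the first is named, and all 5 for Klk11.

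Replicate numbers come from the titles, which do not say what they share. Deviations from the group means were taken over the 2000 genes with the highest mean log2 CPM. They correlated between same-numbered WT and Pelo -/- libraries at 0.232, 0.461 and 0.287 in Lgr6 cells. There each WT library correlated best with the Pelo -/- library of its own number, which counts as pairing here. The correlations were 0.530, 0.0188 and 0.465 in Lgr5 cells and -0.0714 and 0.197 in Lrig1 cells. Only Lgr5 replicates 1 and 3 and Lrig1 replicate 2 correlated best with their own number there, which does not count as pairing.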

Additional observations from a re-analysis of the deposited data

How the results depend on the processing

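No member passed the adjusted threshold in any comparison between genotypes, between Lrig1 and Lgr6 cells, or of Pelo effects, under any alternative run. Calls of members in the upper follicle against Lgr5 are not given, since the list was chosen on that contrast. Its counts of members whose libraries did not overlap, 7 in WT and 4 in Pelo -/-, were 7 and 3 with RLE scaling, 7 to 7 and 4 to 6 with 1 library left out, the 6 being without Pelo -/- Lgr6 replicate 2 or without Pelo -/- Lgr5 replicate 3, alternatives chosen after seeing the data. The causes of the changes below were not tested.

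The number of genes called varied more than the members did. For Pelo -/- against WT the 0 calls in Lrig1 cells became 5 with no filter on low counts, 31 with DESeq2 and 0 to 1 with 1 library left out. The 0 in Lgr6 cells became 1 with no filter and 17 with DESeq2. The 6 in Lgr5 cells became 80 with no filter, 174 with DESeq2, 0 with limma-voom, 0 with the compared groups alone and 2 to 20 with 1 library left out. Lrig1 against Lgr6 had 0 calls in WT and 54 with DESeq2, and 0 in Pelo -/-, 14 with no filter, 63 with DESeq2 and 13 with the compared groups alone. For the upper follicle against Lgr5 the 5523 calls in WT became 9743 with DESeq2 and 2836 to 6728 with 1 library left out, and the 4377 in Pelo -/- became 6676 with DESeq2 and 2785 to 4803. The 3 calls for the difference of Pelo effects became 0 with RLE scaling, a mean of at least 5 CPM or limma-voom, 47 with no filter, 84 with DESeq2 and 0 to 7 with 1 library left out. The compared groups alone are all groups there, so that alternative gives no value of its own.

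With the replicate number as a block, the calls were 2 for Pelo -/- against WT in Lgr5 cells, 1 for Lrig1 against Lgr6 in Pelo -/- and 0 for the difference of Pelo effects, and the block changed no call of a member. It turned the sign of Klk6 in the WT upper follicle against Lgr5 (-0.091) and of Klk7 (0.29), Klk10 (0.19) and Klk13 (-0.037) in the difference of Pelo effects. Every WT Lgr6 library correlated best with the Pelo -/- library of its own number, as did WT Lgr5 replicates 1 and 3 and WT Lrig1 replicate 2. This is a hint from the data and not from the design.

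Other signs turned in values that passed no test. For Klk6 in the WT upper follicle against Lgr5 they were -0.36 with RLE scaling, -0.38 with DESeq2 and -0.40 with limma-voom. For the Pelo -/- upper follicle against Lgr5 Klk14 was 0.37 with limma-voom and St14 -0.055 at a mean of at least 5 CPM. For Pelo -/- against WT, St14 was 0.0077 in Lrig1 cells with the compared groups alone, and in Lgr6 cells 0.024 with RLE scaling, 0.023 with DESeq2 and 0.0095 with no filter, while Klk13 in Lgr5 cells was -0.0049 with RLE scaling, -0.0081 with DESeq2 and -0.16 with limma-voom. Klk7 for Lrig1 against Lgr6 in WT was 0.54 with limma-voom. In the difference of Pelo effects Klk7 was 0.23 with RLE scaling, 0.27 at a mean of at least 5 CPM or with DESeq2 and 0.012 with limma-voom, Klk10 was 0.20 at a mean of at least 5 CPM and 0.45 with limma-voom, and Klk13 was -0.52 with limma-voom.

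With 1 library left out, the following log2 fold changes took either sign. For Pelo -/- against WT in Lrig1 cells these were Klk5 -1.09 to 0.67, Klk6 -0.31 to 6.77, Klk7 -1.36 to 0.30, Klk8 -0.74 to 0.91, Klk10 -0.16 to 1.70, Klk13 -2.41 to 0.32, Klk14 -0.63 to 4.38 and St14 -0.28 to 0.25. In Lgr6 cells these were Klk8 -0.94 to 0.21, Klk11 -0.72 to 0.46, Klk13 -0.17 to 2.33 and St14 -0.32 to 0.28. In Lgr5 cells these were Klk8 -0.15 to 1.16, Klk10 -0.89 to 1.20, Klk11 -0.85 to 0.18, Klk13 -1.16 to 0.65 and Spink5 -0.82 to 2.19. For Lrig1 against Lgr6 in WT these were Klk5 -1.37 to 0.40, Klk7 -1.48 to 2.15, Klk11 -1.07 to 0.11, Klk14 -4.42 to 0.58 and St14 -0.58 to 0.017. For Lrig1 against Lgr6 in Pelo -/- these were Klk6 -0.50 to 5.24, Klk11 -0.19 to 0.27 and Klk13 -2.35 to 0.85. For the upper follicle against Lgr5 in WT these were Klk6 -0.83 to 0.49. For the upper follicle against Lgr5 in Pelo -/- these were Klk6 -1.26 to 1.74. For the difference of Pelo effects these were Klk5 -0.76 to 0.21, Klk6 -1.35 to 2.23, Klk7 -0.66 to 1.41, Klk10 -0.76 to 1.32, Klk11 -0.14 to 0.89, Klk13 -0.95 to 1.47, Klk14 -0.29 to 2.51 and Spink5 -2.99 to 0.019.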
